A study of Mus musculus with 12 samples.

Results

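Immunity-related GTPases are a family of interferon-induced GTPases of the mouse, represented here by Iigp1, Tgtp1, Ifi47, Irgm1, Irgm2 and Igtp. Their members were the probe sets annotated to any of these 6 genes, also where a probe set is annotated to a further gene, and 7 of the 22626 probe sets tested met this. Iigp1 had 2 probe sets and the other 5 genes had 1 each. The Tgtp1 probe set is annotated to Tgtp2 as well, a close relative, and the 2 genes cannot be told apart in it.

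RNA came from whole brains of adult mice, left untreated under pathogen-free housing, and each of the 12 samples was measured on 1 Affymetrix 3′ expression array. There were 3 arrays each of mice lacking Usp18 (USP18ko), of mice lacking both Usp18 and the interferon receptor gene Ifnar1 (USP18ko:IFNARko, the double knockout), of mice lacking Ifnar1 (IFNARko) and of wild-type mice (WT). The sources used here name no strain, sex or cell type restriction of the knockouts. They also leave unsaid if 3 arrays of a group mean 3 animals, so a p-value covers the spread among these arrays, part of which may be technical. USP18 strips ISG15, a relative of ubiquitin, from other proteins, and it also holds back signalling at the type I interferon receptor, of which IFNAR1 is a chain. The study asked what USP18 does in the mouse brain, and the double knockout shows what its loss does without that receptor.

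The proteins fall into a pair of classes. IIGP1 (Irga6), TGTP1 (Irgb6) and IFI47 (Irgd) are effectors, which gather on the membrane of the vacuole that holds a parasite such as Toxoplasma gondii and break it up. This parasite persists in the brain of infected mice. IRGM1, IRGM2 and IGTP (Irgm3) are regulators, which sit on the cell's own membranes and keep the effectors inactive there. Both interferon gamma and type I interferon induce these genes. A promoter sequence called GAS is known for the response to interferon gamma, and one called ISRE, bound by a complex that holds IRF9, for the response to type I interferon.

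The promoters are shown first, because the genes moved together and most of the windows hold one or both elements. RefSeq windows of 300 bases (build GRCm38.p6, 250 bases before the annotated transcript start and 50 after) were at hand for 6 of the 7 genes Iigp1, Tgtp1, Tgtp2, Ifi47, Irgm1, Irgm2 and Igtp, the exception being Iigp1. The motifs searched were TTCNNNGAA for GAS, which reads the same on both strands, and, for the ISRE core, GAAA followed after any 2 bases by GAAA again, searched on both strands. In the stretches below, written 5′ to 3′ along each gene's own strand, capitals mark these matches.
Igtp: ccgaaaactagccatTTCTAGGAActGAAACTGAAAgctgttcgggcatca
Irgm2: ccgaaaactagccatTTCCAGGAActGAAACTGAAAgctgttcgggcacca
Tgtp1: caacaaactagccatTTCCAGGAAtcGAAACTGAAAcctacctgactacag
Tgtp2: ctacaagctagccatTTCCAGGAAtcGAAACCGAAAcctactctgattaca
Irgm1: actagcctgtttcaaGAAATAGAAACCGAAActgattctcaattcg

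In the first 4 stretches a GAS is followed 2 bases later by an ISRE core on the gene's strand. They lie at chr11:58199496-58199546 on the plus strand for Igtp, chr11:58214887-58214937 on the plus strand for Irgm2, chr11:48992299-48992349 on the minus strand for Tgtp1 and chr11:49064258-49064308 on the minus strand for Tgtp2. Irgm1, at chr11:48871420-48871465 on the minus strand, has 2 ISRE cores that share 4 bases and no GAS, and the Ifi47 window holds neither motif. Counted from the transcript start, where the base before it is -1, the GAS begins at -45 in Igtp, -75 in Irgm2, -88 in Tgtp1 and -81 in Tgtp2. The Igtp and Irgm2 stretches are identical at 49 of 51 bases and the Tgtp1 and Tgtp2 stretches at 39 of 51. Between these pairs, 34 to 36 bases are identical, and 30 are the same in all 4 genes. The stretches were cut and aligned at the motif matches, so these counts include the fixed letters of both motifs, identical through the search.

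Of 32851 such windows in the mouse table, 8.30% hold a GAS and 3.44% an ISRE core, against 4 and 5 of the 6 windows here. The pair with this spacing, which was chosen after these sequences were seen, occurs in 5 windows (0.0152%). Those are the 4 above and that of Gm12185, which lies between Irgm1 and Tgtp1 in the gene order of chromosome 11. Gm12185 belongs to the same GTPase family. Of 21 further family genes listed, among them Tgtp2 with its shared probe set, it alone had a probe set that names no other gene. It did not pass the test in USP18ko, where its probe set had means of 4.05 ± 0.25 in USP18ko and 4.15 ± 0.17 in WT (SD, n = 3 each; limma difference -0.10, adjusted p = 1.00). Those means are low beside array medians of 6.98 to 7.07, and whether this probe set can show a change was not tested. Among windows of guanylate-binding protein genes, the other large family of interferon-induced GTPases, 5 of 6 hold an ISRE core, 2 a GAS and 0 the pair. A match is a description of the letters, and neither binding nor use was measured here.

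**Figure D1:**
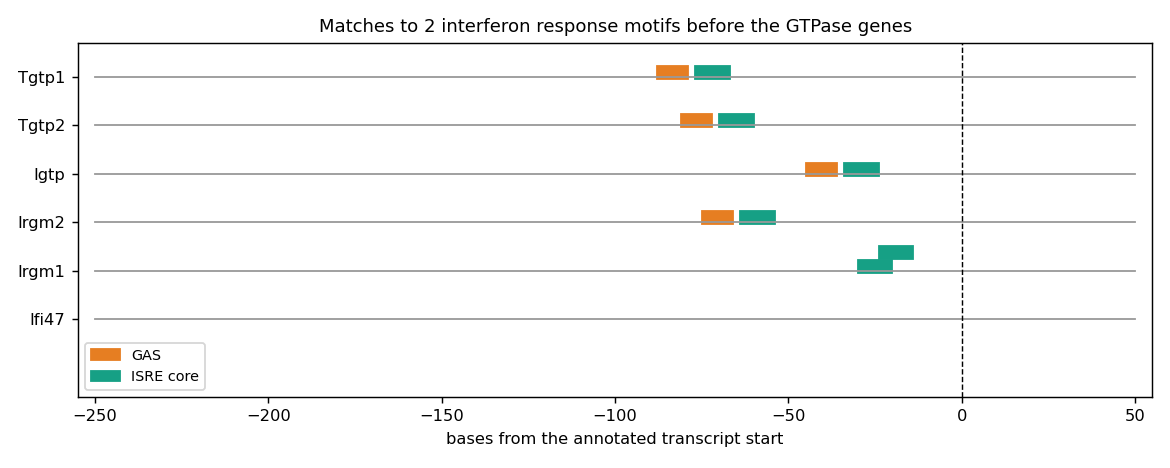
Positions of GAS (orange) and ISRE core (green) matches in RefSeq promoter windows of 6 genes, in bases from the annotated transcript start (dashed line). Tgtp1, Tgtp2, Igtp and Irgm2 each carry a GAS followed 2 bases later by an ISRE core, Irgm1 carries 2 overlapping ISRE cores drawn one above the other, and Ifi47 carries no match.

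Before the levels, the arrays that stood apart are named. IFNARko replicate 1 correlated with the other 11 arrays at Pearson's r of 0.963 to 0.974 over all probe sets, against 0.983 to 0.998 among those 11. Its 3′ minus 5′ difference of the actin control probe sets, a sign of RNA integrity, was 1.48 against 0.20 to 0.54 in the others, and for Gapdh it was 0.47 against -0.37 to -0.17. The mean of its 9 measured neuron markers, of 10 listed, also stood lowest, at a log2 signal of 9.36 against 10.08 to 10.37. These markers were not alike. Measured from the WT mean, Syt1, Tubb3, Map2, Syp and Gad2 stood at -2.36, -1.33, -1.23, -1.23 and -0.75. Snap25, Rbfox3, Nefl and Gad1 stood at -0.22, -0.09, -0.02 and 0.09. Xist was high in WT replicate 1 and all 3 double knockouts, and in the comparisons of the double knockout with the single knockouts genotype and this sex-linked difference cannot be told apart. The double knockout against WT and the interaction given below share this limit in part. Outside the double knockout, only WT replicate 1 was high in Xist. Double knockout replicate 2 was high in Xist and in the Y-linked Eif2s3y, so Eif2s3y as a covariate does not stand for Xist in that array. The signal of Ifnar1 was 6.24 to 6.68 in both groups that lack the gene, with IFNARko replicate 1 at 6.24, and 7.44 to 8.21 where it is intact. Usp18 read 3.50 to 3.76 in the 9 arrays other than WT and 4.04 to 4.36 in WT, so it does not set USP18ko apart from IFNARko.

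Loss of Usp18 alone went with higher levels of all 6 GTPase genes. All 7 probe sets rose in USP18ko against WT (limma, adjusted p under 0.05), by 2.61 to 4.92 on the log2 scale, and in all 7 the lowest USP18ko array lay above the highest WT array. Of all probe sets tested, 0.968% were called higher in this comparison, 0.977% were called in either direction and 9.50% had groups that did not overlap. The median difference was 3.52 over the members and -0.02 over all probe sets. The values are log2 signals as the authors deposited them, with no detection call, so the true distance of a low WT signal from background is unknown and no fold is given. In whole-tissue RNA, more cells of a type and more RNA per cell cannot be told apart.

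Among the effectors, Iigp1 gave 8.16, 7.51 and 8.07 in USP18ko, 3.46, 3.24 and 3.62 in the double knockout, 4.75, 3.33 and 3.45 in IFNARko and 3.32, 3.57 and 3.40 in WT with the first of its probe sets (1419042_at, log2 signals of replicates 1, 2 and 3). The second (1419043_a_at) gave 9.30, 8.68 and 8.78 in USP18ko, 3.81, 3.74 and 3.93 in the double knockout, 5.72, 3.94 and 3.93 in IFNARko and 4.22, 4.52 and 4.11 in WT. Both separate the USP18ko arrays from all 9 others, and in both the next array down is IFNARko replicate 1. The USP18ko minus WT difference was 4.49 (SE 0.31, limma adjusted p = 4.22e-06) and 4.64 (SE 0.38, adjusted p = 2.12e-05), so that the 2 probe sets of the gene differ by less than their errors.

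Tgtp1, whose product marks the vacuole among the first of the effectors, read 9.74, 9.35 and 9.93 in USP18ko, 4.12, 4.23 and 4.34 in the double knockout, 7.71, 4.05 and 4.38 in IFNARko and 4.50, 5.41 and 4.33 in WT. Its USP18ko minus WT difference was 4.92 (SE 0.72, limma adjusted p = 0.00320). This was the highest difference of the 7 and had the widest error, and the IFNARko values run over 3.67 log2 units. Ifi47 read 8.69, 8.09 and 8.50 in USP18ko, 5.29, 5.37 and 5.31 in the double knockout, 6.34, 5.48 and 5.45 in IFNARko and 5.39, 5.64 and 5.72 in WT. With a difference of 2.84 (SE 0.22, limma adjusted p = 1.33e-05) it was the effector that rose least, and its double knockout arrays lay within 0.08 of each other.

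The regulators followed the same order of genotypes. Irgm1 read 8.95, 8.64 and 9.13 in USP18ko, 5.74, 5.80 and 5.74 in the double knockout, 7.11, 5.80 and 5.67 in IFNARko and 5.86, 6.37 and 6.21 in WT, a USP18ko minus WT difference of 2.76 (SE 0.30, limma adjusted p = 2.92e-04). Irgm2 read 7.24, 6.89 and 7.02 in USP18ko, 3.96, 4.01 and 4.51 in the double knockout, 6.11, 4.18 and 4.28 in IFNARko and 4.41, 4.70 and 4.20 in WT. Its difference of 2.61 (SE 0.40, limma adjusted p = 0.00468) was the lowest of the 7, and IFNARko replicate 1 lay nearer to the lowest USP18ko array than to the highest WT array. Igtp read 9.62, 9.25 and 9.69 in USP18ko, 5.60, 5.58 and 5.55 in the double knockout, 7.51, 5.65 and 5.48 in IFNARko and 6.01, 6.16 and 5.82 in WT. Its difference was 3.52 (SE 0.40, limma adjusted p = 3.85e-04), with the 3 double knockout arrays within 0.06 of each other and below every WT array.

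**Figure D2:**
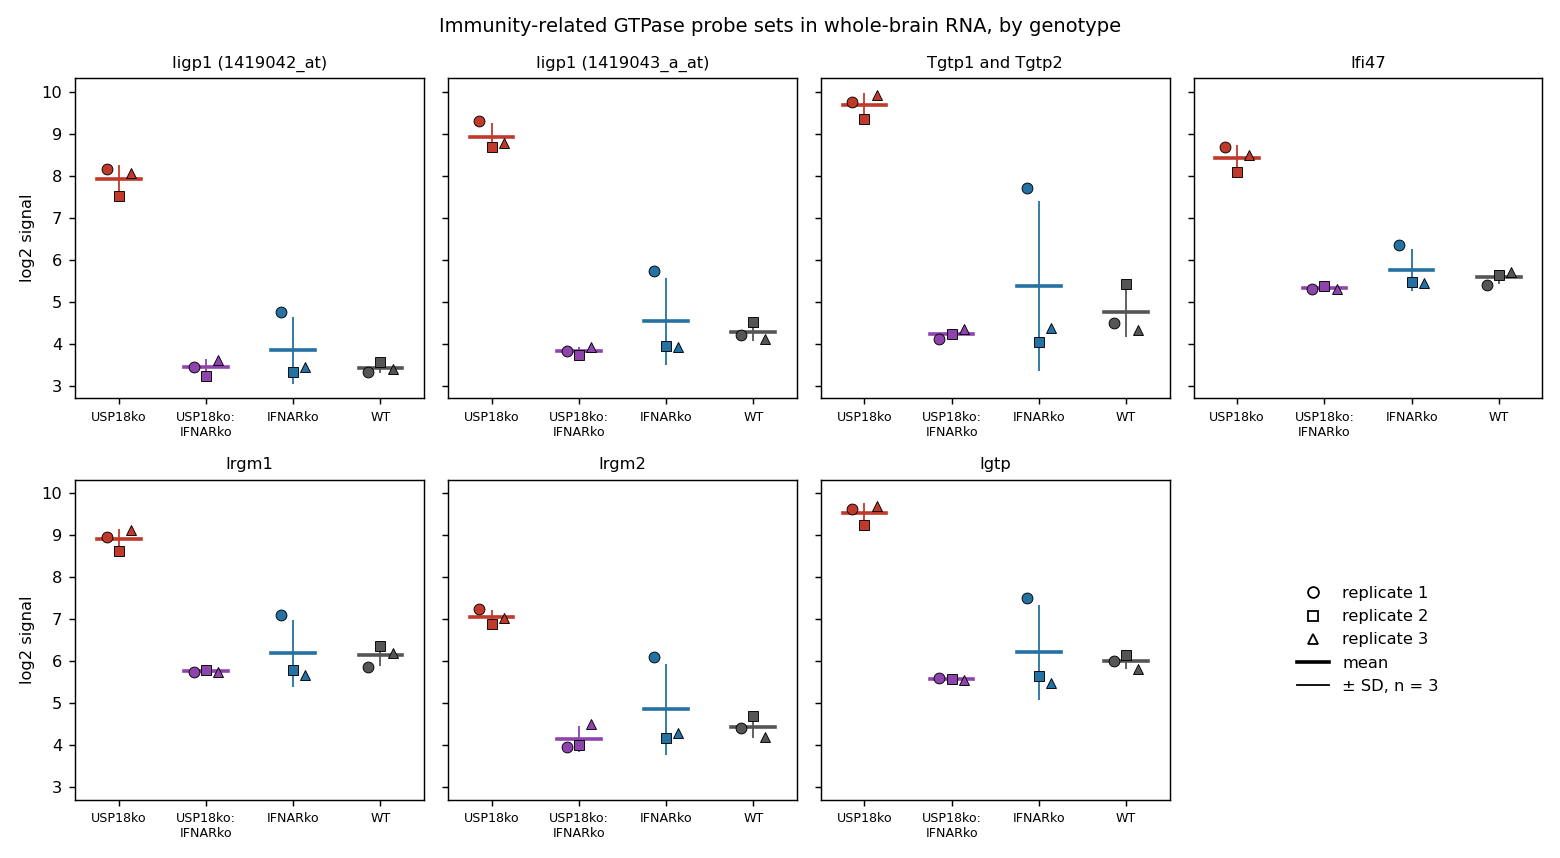
Log2 signal of the 7 immunity-related GTPase probe sets in USP18ko, USP18ko:IFNARko, IFNARko and WT, with 1 point per array, the shape giving the replicate, a thick bar for the mean and a thin line for ± SD (n = 3). USP18ko arrays lie above all others in every panel, and IFNARko replicate 1 (circle) lies above the other 2 IFNARko arrays, by the most for Tgtp1 and Tgtp2 at 7.71 against 4.05 and 4.38.

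By group means, USP18ko was highest for all 7 probe sets. IFNARko came next, then WT and then the double knockout in 6 of 7, and for the first Iigp1 probe set the last 2 stood the other way round, at 3.44 ± 0.19 in the double knockout and 3.43 ± 0.13 in WT (SD, n = 3 each). The lower neighbours in this order were not told apart by the tests below. Within the USP18ko group replicate 2 was lowest for 7 of 7 probe sets, as it was for 41.4% of all probe sets, and it had the highest mean of 12 microglia markers in its group, 8.50 against 7.82 and 8.18. Within WT replicate 2 was highest for 6 of 7, the exception being Ifi47, as it was for 29.8% of all. That array also had the highest mean of microglia markers in WT, 7.82 against 6.64 and 7.33, and the highest mean of 7 oligodendrocyte markers, 9.53 against 7.29 and 6.84. What part these have in the GTPase levels of both arrays was not tested.

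With the receptor gene lost as well, the levels were low again. In the double knockout against USP18ko, all 7 probe sets fell, with log2 differences of -5.45 (Tgtp1) to -2.89 (Irgm2) and a median of -3.94, and in none did the groups overlap. Of all probe sets, 1.16% were called lower, 1.19% in either direction, and 16.5% did not overlap. Iigp1 differed by -4.48 (SE 0.31, limma adjusted p = 3.90e-06) and -5.09 (SE 0.38, adjusted p = 7.40e-06) and Tgtp1 by -5.45 (SE 0.72, adjusted p = 0.00124). Among the regulators Igtp differed by -3.94 (SE 0.40, limma adjusted p = 1.21e-04) and Irgm1 by -3.14 (SE 0.30, adjusted p = 8.01e-05). The 6 guanylate-binding proteins measured fell too, with a median of -3.52. So did 5 of 17 interferon receptor and signalling genes, the deleted Ifnar1 among them. Of 17 autophagy genes 0 were called, where 1.19% of all probe sets were, and 0 had an unadjusted p under 0.05. In the limma fit without IFNARko replicate 1, 7.67% of all probe sets had such an unadjusted p. This share is not like for like with the gene counts, which come from all arrays. Microglia markers moved the same way, with 4 of 12 called lower by limma, 10 of 12 at an unadjusted p under 0.05 and a median of -0.77, beside 0.01 over all probe sets. Of 8 monocyte and neutrophil markers 1 was called lower, Plac8, and 2 had an unadjusted p under 0.05. Their part in the GTPase levels was not tested.

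Set against WT, the double knockout gave 0 calls among the 7 probe sets by limma and 0 at an unadjusted p under 0.05, where 0.00% of all probe sets were called and 4.20% had such an unadjusted p. The differences ran from -0.52 for Tgtp1 to 0.01 for the first Iigp1 probe set, with a median of -0.38 over the members and -0.01 over all probe sets (adjusted p 0.996 to 0.998). A missed threshold does not show equal levels, and the 95% intervals were -0.74 to 0.22 for Ifi47, -1.04 to 0.28 for Irgm1 and -2.10 to 1.05 for Tgtp1. In 4 of 7 probe sets, those of Ifi47, Irgm1, Igtp and the second of Iigp1, every double knockout array lay below every WT array, as groups did not overlap in 15.9% of all probe sets. Without IFNARko replicate 1, whose spread enters the shared error, 3 of 7 had an unadjusted p under 0.05 (10.3% of all probe sets did), Igtp at 0.00566, the second Iigp1 probe set at 0.0124 and Irgm1 at 0.0209, and 0 were called by limma (adjusted p 0.335 to 0.990).

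The effect of Usp18 loss differed between arrays with and without the receptor gene. Genotype and the Xist difference named above cannot be fully told apart in this contrast. The interaction, defined as the double knockout minus IFNARko less the USP18ko minus WT difference, was negative for all 7 probe sets and called for all 7, where 0.685% of all probe sets were called lower and 0.703% in either direction. It ran from -6.08 for Tgtp1 (limma adjusted p = 0.0145) to -3.19 for Irgm1 (adjusted p = 0.00275). The call of Irgm2 (-3.31, limma adjusted p = 0.0166) was lost on leaving out any of USP18ko replicates 1 or 3, double knockout replicates 1 or 2 and WT replicates 1 or 3, with adjusted p of 0.0544 to 0.0651. That of Tgtp1 was lost without USP18ko replicate 3, double knockout replicate 1, WT replicate 1 or WT replicate 3, with adjusted p of 0.0544 to 0.0588. With the Y-linked Eif2s3y as a covariate the interaction of Tgtp1, Irgm1, Irgm2 and Igtp was not called (limma adjusted p = 0.351, 0.114, 0.300 and 0.0859), with values of -5.60, -2.82, -3.27 and -4.06. Without IFNARko replicate 1 all 7 were called, at -4.91 for Tgtp1 to -2.68 for Irgm2.

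In IFNARko, which lacks the receptor alone, the higher GTPase levels came from 1 array. IFNARko against WT gave differences of 0.05 (Irgm1) to 0.63 (Tgtp1), of which 0 were called by limma (adjusted p 0.651 to 0.967) and 0 had an unadjusted p under 0.05, where 0.0177% of all probe sets were called and 9.17% had such an unadjusted p. All 7 members overlapped between these groups, where 11.4% of all probe sets did not. Without IFNARko replicate 1 the sign turned in 7 of 7, to -0.54 for Tgtp1, -0.43 for Igtp, -0.41 for Irgm1, -0.35 and -0.04 for Iigp1, -0.20 for Irgm2 and -0.12 for Ifi47. None of these was called (limma adjusted p 0.290 to 0.961; 0.0354% of all probe sets were called), and 2 had an unadjusted p under 0.05, Igtp at 0.00941 and Irgm1 at 0.0253, as did 11.9% of all. In 3 of 7 probe sets, those of Irgm1, Igtp and the second of Iigp1, IFNARko replicates 2 and 3 both lay below every WT array, as in 17.6% of all.

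The spread among the IFNARko arrays was the widest of the 4 genotypes for 7 of 7 members, as it was for 49.6% of all probe sets. Its range was 3.67 for Tgtp1, 2.03 for Igtp, 1.93 for Irgm2, 1.79 and 1.42 for Iigp1, 1.44 for Irgm1 and 0.89 for Ifi47, beside a median of 0.38 over all probe sets of that group. A range as wide as that of Tgtp1 was found in 0.102% of all probe sets, and as wide as that of Ifi47 in 11.1%. Replicates 2 and 3 differed from each other by 0.02 to 0.33, beside a median gap of 0.10. The double knockout ranges were 0.06 for Igtp and Irgm1 and 0.56 for Irgm2, the widest there.

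IFNARko replicate 1 exceeded each of the other 8 arrays outside USP18ko in 7 of 7 members, which it did in 35.6% of all probe sets, and it stayed below every USP18ko array in 7 of 7. Its excess over the highest of those 8 arrays was 0.62 for Ifi47, 0.74 for Irgm1, 1.12 and 1.20 for Iigp1, 1.35 for Igtp, 1.41 for Irgm2 and 2.30 for Tgtp1. An excess of at least 1 was found in 5 of 7 members, and in 0.451% of all probe sets. Ranked by this excess, Tgtp1 held place 2, Irgm2 place 11, Igtp place 13, Iigp1 places 25 and 45, Irgm1 place 367 and Ifi47 place 677 among all 22626. Of the top 20, the 6 that were also higher in USP18ko than in WT were those of Tgtp1, Irgm2 and Igtp, 2 probe sets of Gbp2 and 1 of Gbp3.

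The other probe sets that rose in USP18ko were read in the same array. Of the 212 non-member probe sets called higher in USP18ko, 87 (41.0%) had IFNARko replicate 1 above the other 8 arrays, 15 (7.08%) had it below them where 24.3% of all probe sets did, and 4 (1.89%) had it at least 1 above. Those 4, named after their values were seen, belong to the guanylate-binding proteins, 2 of them to Gbp2 (2.42 and 1.56), 1 to Gbp3 (1.30) and 1 to Gbp7 (1.14). The difference between members and non-members in this array was not tested, since 1 array has no replicate.

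**Figure D3:**
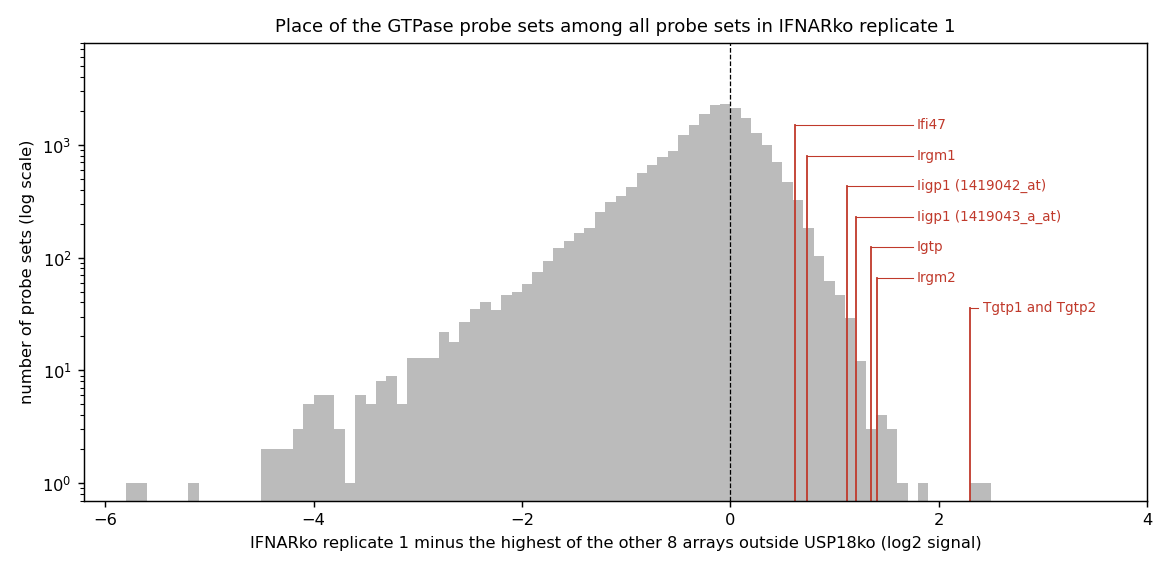
Histogram of all 22626 probe sets by the log2 signal of IFNARko replicate 1 minus the highest of the other 8 arrays outside USP18ko, with the number of probe sets on a log scale and the 7 members as red lines. All 7 lie right of 0, from 0.62 for Ifi47 to 2.30 for Tgtp1 and Tgtp2.

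Within that array the interferon-induced genes did not all stand high. Measured from the WT mean, IFNARko replicate 1 was higher by 2.96 for Tgtp1, 2.51 for Gbp2, 1.68 for Irgm2, 1.51 for Igtp and 1.38 for Gbp3. Among the other genes with profiles closest to a member's, Ifit1, Cxcl10 and Psmb9, an antiviral protein, a chemokine and a proteasome subunit, stood 0.11, 0.01 and 0.10 above the WT mean. The RNA sensor Ifih1 stood 0.70 above it, Plac8 0.74, the leucocyte marker Ptprc 1.01 and Gbp7 1.23 by the probe set that gave its profile. By their brightest probe sets, the other guanylate-binding proteins lay at 0.62 for Gbp7, 0.16 for Gbp8, 0.07 for Gbp6 and -0.48 for Gbp2b. The Irf transcription factors spread likewise, at 0.66 for Irf2, 0.33 for Irf1, 0.16 for Irf8, -0.04 for Irf9 and -0.44 for Irf7. Irf2, which did not pass the test in USP18ko, exceeded the highest of the other 8 arrays by 0.61, close to Ifi47. The receptor chains of interferon gamma gave 0.10 for Ifngr1 and -1.15 for Ifngr2, and the signalling gene Stat2 gave -1.35. Of the interferon genes, Ifng gave 0.21, Ifnb1 0.34 and the measured Ifna genes -0.24 (Ifna5) to 0.64 (Ifna2). Ifng and Ifnb1 read only 3.50 and 4.93 in that array, and whether such low signals can show a change was not tested. The mean of 13 lymphocyte markers was 4.88 in that array, above 4.63 and 4.52 in the other IFNARko arrays and 4.66 to 4.75 in WT. This list was mixed. Ms4a1 and Ncr1 stood 0.74 and 0.68 above the WT mean, at low signals of 4.82 and 4.50. Cd3e, Cd3d, Cd3g and Cd8a stood at 0.07, 0.11, -0.26 and -0.21 from it, and Gzmb and Prf1 at 0.05 and -0.03. The mean of 8 monocyte and neutrophil markers was 4.75, against 4.13 and 4.25 in the other IFNARko arrays and 4.23 to 4.41 in WT. Double knockout replicate 3 had a higher mean of these 8 markers, 4.90. Its S100a8 and S100a9 read 5.84 and 6.26, against 4.82 and 5.21 in IFNARko replicate 1. Its Plac8 and Ccr2 read 4.85 and 3.54, against 5.93 and 4.01. The mean of 12 microglia markers was 7.09 in IFNARko replicate 1, within the 7.03 to 7.19 of the IFNARko group. What part other cells or the RNA measures given above have in the GTPase levels of that array was not tested.

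**Figure D4:**
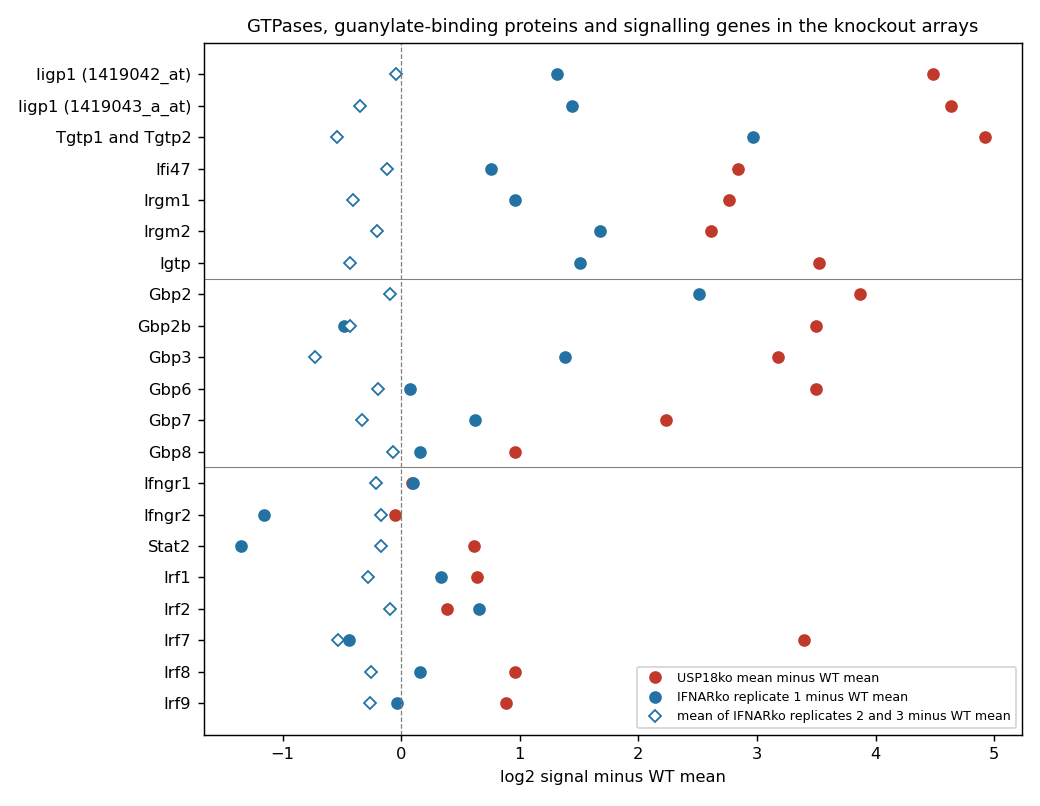
Log2 signal minus the WT mean for the 7 GTPase probe sets, 6 guanylate-binding proteins and 8 signalling genes, as the USP18ko mean (red), IFNARko replicate 1 (filled blue) and the mean of IFNARko replicates 2 and 3 (open diamonds). In IFNARko replicate 1 all 7 GTPase probe sets, Gbp2 and Gbp3 lie at 0.76 or more, whereas Irf7, which was 3.40 higher in USP18ko, lies at -0.44.

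The double knockout against IFNARko asks for an effect of Usp18 loss without the receptor. The 7 differences ran from -1.15 (Tgtp1) to -0.40 (first Iigp1 probe set), and 0 were called by limma (adjusted p 0.547 to 0.606) or had an unadjusted p under 0.05, where 0.00% of all probe sets were called and 8.35% had such an unadjusted p. Groups did not overlap for 1 of 7, Ifi47, and for 19.5% of all probe sets. Without IFNARko replicate 1 the differences were -0.14 to 0.05 and 4 of 7 changed sign. That array also widened the errors of comparisons it does not enter, since all groups share 1 estimate of the spread. Without it the SE of USP18ko minus WT was 0.12 to 0.24 in place of 0.22 to 0.72, and all 7 members were called (limma adjusted p 1.15e-08 to 1.38e-06).

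**Figure D5:**
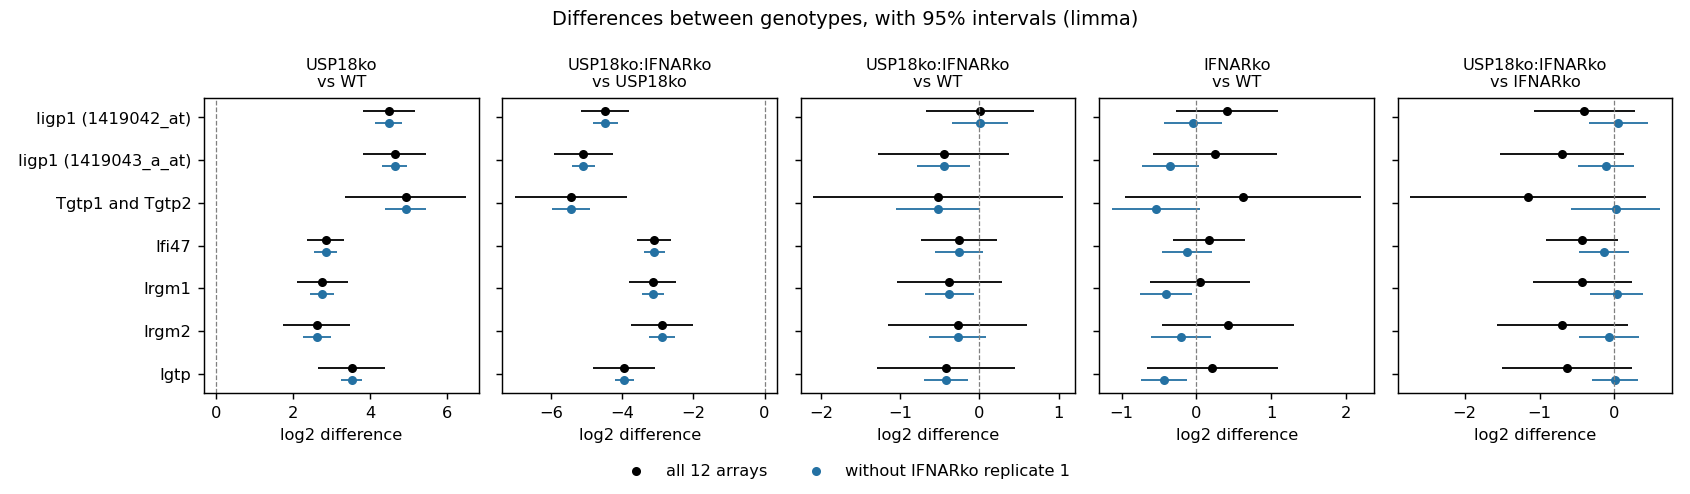
Log2 differences of the 7 probe sets in 5 comparisons of genotypes, with 95% intervals from limma, for all 12 arrays (black) and without IFNARko replicate 1 (blue). Intervals for USP18ko against WT and for USP18ko:IFNARko against USP18ko exclude 0 for all 7 in both fits, and the 7 IFNARko against WT differences lie above 0 with all arrays and below 0 without that array.

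Genes that work with the GTPases were followed in USP18ko against WT, each by its brightest probe set that names 1 gene. All 6 measured guanylate-binding proteins of a list of 13 rose, with a median of 3.34, among them Gbp2 by 3.87 (SE 0.53, limma adjusted p = 0.00193), Gbp6 by 3.50 (SE 0.18, adjusted p = 4.09e-07), Gbp2b by 3.50 (SE 0.22, adjusted p = 2.13e-06) and Gbp7 by 2.24 (SE 0.22, adjusted p = 9.58e-05). These proteins coat parasite vacuoles together with the immunity-related GTPases. Gbp2 read 8.71, 8.30 and 7.95 in USP18ko, 4.27, 4.29 and 4.43 in the double knockout, 6.97, 4.47 and 4.24 in IFNARko and 4.45, 4.55 and 4.37 in WT. The group means of Gbp2 and Gbp8 stand in the order found for 6 of the 7 members. For Gbp8 the IFNARko mean was 3.013 and the WT mean 3.006. The mean of IFNARko replicates 2 and 3 lay at -0.10 for Gbp2 and -0.07 for Gbp8 from the WT mean. In IFNARko against WT 0 of the 6 guanylate-binding proteins were called by limma. For the other 4, Gbp2b, Gbp3, Gbp6 and Gbp7, the IFNARko mean lay below the WT mean, with 3.67 in IFNARko and 4.12 in WT for Gbp2b and 5.35 in IFNARko and 5.37 in WT for Gbp3.

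Autophagy and ubiquitin genes were read next. The conjugation genes of autophagy, such as Atg3, Atg5, Atg7 and Atg16l1, are needed for both families to load onto vacuoles, and the list also holds initiation genes such as Ulk1 and cargo receptors such as Sqstm1. Of its 17 measured genes of 19, 0 were called in USP18ko against WT by limma and 0 had an unadjusted p under 0.05, with a median of 0.01. Of all probe sets 0.977% were called, and 7.26% had such an unadjusted p in the fit without IFNARko replicate 1. The latter share is not like for like with the gene counts, which come from all arrays. Of 7 measured of 10 ubiquitin-related genes, 1 rose, Trim21, a ubiquitin ligase that binds antibodies, by 1.19 (SE 0.19, limma adjusted p = 0.00560), and the median was -0.04.

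Of 17 measured of 20 interferon receptor and signalling genes, 3 rose and 1 fell, with a median of 0.18. Irf7, which amplifies type I interferon production, rose by 3.40 (SE 0.12, limma adjusted p = 1.81e-08), Irf8 by 0.96 (SE 0.13, adjusted p = 0.00213) and Irf9, part of the complex at the ISRE, by 0.88 (SE 0.12, adjusted p = 0.00172). The one that fell was the deleted gene Usp18, by 0.63 (SE 0.12, adjusted p = 0.0202). Irf1 differed by 0.64 (limma adjusted p = 0.180), Ifngr1 by 0.09 and Ifngr2 by -0.05 (both adjusted p = 1.00). Of 13 genes for interferons and the interleukins that induce interferon gamma, 10 were measured. By limma 0 of these were called or had an unadjusted p under 0.05. Ifng differed by 0.03 and Ifnb1 by 0.10 (both limma adjusted p = 1.00). Signals of both were low, with means of 3.311 and 4.70 in USP18ko and 3.285 and 4.60 in WT. Array medians were 6.98 to 7.07, and the lowest value of any probe set was 2.36. Il18 stood higher, at 8.84 in USP18ko and 8.65 in WT. Whether the low probe sets can show a change in their transcripts was not tested, so unchanged interferon levels are not shown.

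Marker lists of brain and blood cells were read beside these. Of 12 measured microglia markers, 3 rose in USP18ko against WT, Aif1 by 1.93 (SE 0.29, limma adjusted p = 0.00447), C1qa by 1.79 (SE 0.37, adjusted p = 0.0429) and Itgam by 0.80 (SE 0.14, adjusted p = 0.0153). An unadjusted p under 0.05 was found for 8 of the 12. In the limma fit without IFNARko replicate 1, 7.26% of all probe sets had one. That share is not like for like with the count, which comes from all arrays. The median difference of the 12 was 0.84, beside -0.02 over all probe sets, with P2ry12 at -0.35 and Fcrls at 0.0009. The mean over the 12 was 7.82 to 8.50 in USP18ko and 6.64 to 7.82 in WT. Plac8 was the 1 of 8 monocyte and neutrophil markers that rose, by 3.35 (SE 0.33, limma adjusted p = 1.08e-04), with 4 of the 8 at an unadjusted p under 0.05 and a median of 0.38. Their mean was 5.17 to 5.29 in USP18ko and 4.23 to 4.41 in WT. Beside Plac8, S100a8, S100a9 and Ngp differed by 1.90, 1.63 and 0.56 (limma adjusted p = 0.180, 0.144 and 0.542). Ccr2, Mpo, Elane and Camp differed by 0.19, 0.0049, -0.06 and -0.16. Of the 13 lymphocyte, 10 endothelial, 9 astrocyte, 7 oligodendrocyte and 9 neuron markers measured, 0 were called by limma, and 1 endothelial and 1 astrocyte marker had an unadjusted p under 0.05. The part of microglia or blood cells in the GTPase levels was not tested.

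The profiles most like each member were sought among single-gene probe sets by the root mean square difference over the 12 arrays, after subtracting each probe set's WT mean. Igtp lay closest to Gbp2 at 0.21, followed by Gbp3 at 0.31 and Plac8 at 0.33. For Irgm1 the closest was Gbp7 at 0.21, then the RNA sensor Ifih1 at 0.26 and Psmb9 at 0.28, and the same first 2 genes were closest to Irgm2, at 0.25 and 0.36. Ifi47 lay closest to Psmb9 and Ifih1, both at 0.25, while Iigp1, by its second probe set, was nearest to Ifit1 at 0.46 and Cxcl10 at 0.47. Tgtp1 had no near match, with Gbp2, by its brightest probe set, first at 0.69. Among the members themselves, the effector Ifi47 and the regulator Irgm1 were the closest to each other at 0.18, so the closest pair holds a member of each class.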

How the data were processed

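Values are log2 signals per probe set, deposited as the authors processed them with affy, per the submitters' processing notes. Version, background correction and normalization: not given in the sources used here. Base 2 was read from the range of the values, 2.36 to 13.81. Of 22690 probe sets, 64 controls were left out. In the platform annotation 20380 probe sets name 1 gene and 691 several, and 1555 are not listed there.

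All 22626 probe sets were fitted at once with limma 3.58.1 in R 4.3.3 (12 arrays, genotype as the only term, 8 residual and 3.79 prior degrees of freedom). Two-sided p-values were adjusted (Benjamini-Hochberg) over the whole table in each of 6 comparisons and called under 0.05. An exact test of 3 against 3 arrays cannot go below 0.1. The fit was tested on simulated data. The number of arrays limits the precision.

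The members, lists, comparisons and alternatives were chosen with earlier results of these data known. Besides the members, the genes named are both targeted genes, up to 4 called genes per list with the smallest p, Irf1, Irf9, Ifngr1, Ifngr2, Ifng and Ifnb1, and the 3 closest profiles per member. The values given in 1 array are those of the genes of these profiles and of all measured guanylate-binding proteins and Irf genes of the lists. Stat2, Ifngr1, Ifngr2 and the interferon genes are given there as well. Further genes of the microglia and of the monocyte and neutrophil lists were named after their values were seen. Replicate numbers are in the labels. Deviations from the group means of same-numbered arrays correlated at 0.10, 0.26 and 0.15 between USP18ko and the double knockout, all over a cut of 0.1. The 18 such correlations ran from -0.26 to 0.26, so these 3 do not show that the numbers pair those groups. In the other pairs of groups at least 1 of the 3 correlations was below the cut. A search of the protein sequences was not made here. Alternatives were a filter on low signal, median centring, quantile normalization, array weights, a trended and robust variance, a log2 difference of at least 1, 1 probe set per gene, only the groups compared, the replicate number as a block and each array left out, and, chosen after seeing the data, 2 arrays left out together and an Eif2s3y covariate.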

Additional observations from a re-analysis of the deposited data

Results flagged for a closer look

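The effect of Usp18 loss with the receptor gene intact (USP18ko minus WT) differed from that without it (double knockout minus IFNARko) for all 7 probe sets, by the interaction term of limma. The second of these effects less the first was -4.89 for the first Iigp1 probe set (adjusted p = 1.01e-04) and -5.34 for the second (adjusted p = 2.36e-04), -6.08 for Tgtp1 (adjusted p = 0.0145) and -3.27 for Ifi47 (adjusted p = 1.44e-04). For the regulators it was -3.19 for Irgm1 (adjusted p = 0.00275), -3.31 for Irgm2 (adjusted p = 0.0166) and -4.16 for Igtp (adjusted p = 0.00290). IFNARko replicate 1 enters this term, and without it the values were -4.43 and -4.75 for Iigp1, -4.91 for Tgtp1, -2.98 for Ifi47, -2.73 for Irgm1, -2.68 for Irgm2 and -3.51 for Igtp, all called. With the Y-linked Eif2s3y as a covariate Tgtp1, Irgm1, Irgm2 and Igtp were not called (limma adjusted p = 0.351, 0.114, 0.300 and 0.0859). The call of Irgm2 was also lost on 6 of the 12 removals of a single array, and that of Tgtp1 on 4. Genotype and the Xist difference between the arrays cannot be fully told apart in this term.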

How the results depend on the processing

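For USP18ko against WT, and likewise the double knockout against USP18ko, all 155 recomputed member differences per comparison kept direction and call. A filter at the 40th percentile of mean signal removed 4 member probe sets and left 3 called in these comparisons and in the interaction. Same-number correlations passed 0.1 in 6 of 18 pairs (-0.26 to 0.26), in all 3 only for USP18ko with the double knockout. The replicate block changed no call, with 7, 7 and 7 called in these and 0 in the other comparisons. With array weights, whose estimate did not converge and gave WT replicate 3 a weight of 65.9 against 0.06 to 8.52 for others, 4 were called in the double knockout against WT and 4 in IFNARko against WT. Differences in IFNARko against WT reversed to -0.18 (second Iigp1 probe set), -0.26 (Ifi47), -0.52 (Irgm1) and -0.32 (Igtp), and the double knockout against IFNARko to 0.0022 (first Iigp1), 0.073 (Irgm1) and 0.079 (Igtp). Median centring turned the double knockout against WT difference of the first Iigp1 probe set to -0.020. Eif2s3y as a covariate left 3 interactions called and turned Irgm1 in IFNARko against WT to -0.093. With double knockout replicate 2 left out beside IFNARko replicate 1, IFNARko against WT reversed to -0.045, -0.35, -0.54, -0.12, -0.41, -0.20 and -0.43 (Iigp1 first and second, Tgtp1, Ifi47, Irgm1, Irgm2, Igtp), and the double knockout against IFNARko to 0.15, 0.017, 0.0090, 0.0050 and 0.0097 (first Iigp1, Tgtp1, Irgm1, Irgm2, Igtp). Leaving out 1 array at a time gave 5 to 7 called interactions (Tgtp1 -6.74 to -4.91, Irgm2 -3.65 to -2.68) and 0 to 7 members with the IFNARko range widest, 0 without IFNARko replicate 1. IFNARko against WT ran from -0.045 to 0.67 and -0.35 to 0.55 for Iigp1, -0.54 to 1.30 for Tgtp1, -0.12 to 0.33 for Ifi47, -0.41 to 0.31 for Irgm1, -0.20 to 0.76 for Irgm2 and -0.43 to 0.58 for Igtp. The double knockout against IFNARko ran from -0.66 to 0.052 for the first Iigp1 probe set, -1.82 to 0.017 for Tgtp1, -0.69 to 0.028 for Irgm1 and -1.005 to 0.011 for Igtp, and against WT from -0.085 to 0.11 for the first Iigp1 probe set. Causes beyond the arrays and probe sets removed were not tested.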
